A study of Mus musculus with 9 samples.

Results

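The genes described here are the matrix metalloproteinases (Mmp), their tissue inhibitors (Timp) and the Adamts and Adamtsl genes, which encode secreted proteases and protease-like proteins of the extracellular matrix. Members were set by a rule on names, chosen with earlier results of these data known. A gene was included when its platform symbol is Mmp or Timp followed by a digit, or starts with Adamts. The symbol also had to be the single one given for its probe sets. This gave 42 of the 16299 genes named on the array, 21 Mmp, 4 Timp, 13 Adamts and 4 Adamtsl genes, with 740 probe sets between them. Testing required 3 probe sets per gene and a gene mean over 5.09 on the log2 scale, which 28 of the 42 members passed, as part of 11342 genes in all. Total RNA came from the fat depot beside the gonads (perigonadal white adipose tissue) and was measured on 9 exon-level microarrays. The mice were 4 months old and of 3 genotypes with 3 arrays each: wild type (WT), G609G/G609G (here G609G) and LCS/LCS (here LCS). Both alleles lie in Lmna, the gene of lamins A and C. The G609G allele is known as a model of progeria in which a truncated lamin A, progerin, is made, and mice with the LCS allele are known to make lamin C but no lamin A. The labels give no sex, and they do not say which animals stand behind the replicates of a group, so a p-value here reflects the spread between single arrays, which may be technical, and the number of arrays limits the precision.

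Mmp enzymes cleave collagens, elastin, other matrix proteins and cell surface proteins, and are made as inactive precursors. Timp proteins bind the active site of Mmp enzymes, and Timp3, which stays bound to the matrix, also inhibits several Adamts enzymes. Adamts enzymes cut proteoglycans such as versican and aggrecan or trim procollagens, while Adamtsl proteins lack the protease domain and bind matrix microfibrils. In fat tissue these genes are known for the turnover of the matrix around adipocytes as the depot expands.

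The values are log2 intensities per gene, so a difference of 1 is a doubling of signal. The deposited medians over probe sets ran from 6.52 to 6.63 on the G609G arrays, from 7.17 to 7.28 on WT and from 7.19 to 7.26 on LCS. All member values are therefore given relative to the median gene: the median deviation of each array from the gene means was removed, which moved the G609G group up by 0.46 and the LCS group down by 0.03 (group offsets of -0.46 and 0.03), with WT kept at its deposited level. Results that turn with this scaling are given on both scales. Adipocyte markers were present on every array, with a mean level over 19 genes of 11.87 to 11.94 in WT, 11.26 to 11.28 in G609G and 12.12 to 12.14 in LCS. Skeletal muscle markers, which the labelled tissue should lack, were high in G609G: the mean over 15 genes was 11.47 to 11.53 there, against 5.03 to 5.22 in WT and 5.33 to 5.37 in LCS. The mean over 18 epididymis and testis markers was 11.21 to 11.30 in WT, 8.36 to 8.49 in G609G and 9.42 to 9.45 in LCS. In bulk tissue, fewer cells of a type and less RNA per cell cannot be told apart.

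Promoter sequences are shown for the 2 members with the largest rise in G609G that have a listed promoter and rose under every scaling tried (Adamts1 and Mmp7), for the inhibitor that rose with them (Timp3), and for Mmp12, which fell in G609G and rose in LCS. Mmp3, a stromelysin under the filter in all groups, is added because its window holds the same motifs as that of Mmp7. The 250 bases before the start are from RefSeq, assembly GRCm38.p6, on the strand of the gene: chr16:85803114-85803363 for Adamts1 (minus strand), chr10:86300162-86300411 for Timp3, chr9:7691840-7692089 for the first of 2 starts of Mmp7, chr9:7347124-7347373 for the second of 2 starts of Mmp12 and chr9:7445572-7445821 for Mmp3 (all plus strand). Capitals mark an AP-1 site (TGANTCA, bound by Jun and Fos proteins), a GC box (GGGCGG or its complement CCGCCC, bound by Sp proteins) or a TATA box (TATAAA), searched on both strands.
Adamts1: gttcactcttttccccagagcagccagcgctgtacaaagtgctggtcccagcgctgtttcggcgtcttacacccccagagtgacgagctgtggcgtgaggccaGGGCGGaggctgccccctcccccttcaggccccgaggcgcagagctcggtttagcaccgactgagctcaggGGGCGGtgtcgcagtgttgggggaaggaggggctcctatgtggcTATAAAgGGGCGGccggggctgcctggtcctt
Timp3: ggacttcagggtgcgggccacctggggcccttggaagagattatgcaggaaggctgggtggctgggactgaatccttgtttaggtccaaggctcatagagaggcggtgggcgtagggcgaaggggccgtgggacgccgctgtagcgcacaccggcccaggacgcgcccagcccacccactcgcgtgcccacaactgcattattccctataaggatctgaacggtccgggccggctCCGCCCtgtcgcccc
Mmp7: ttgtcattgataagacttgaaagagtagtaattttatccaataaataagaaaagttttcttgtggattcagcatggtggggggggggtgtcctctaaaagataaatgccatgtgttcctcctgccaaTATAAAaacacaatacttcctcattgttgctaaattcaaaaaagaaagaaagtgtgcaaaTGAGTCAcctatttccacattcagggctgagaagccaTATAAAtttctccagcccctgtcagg
Mmp12: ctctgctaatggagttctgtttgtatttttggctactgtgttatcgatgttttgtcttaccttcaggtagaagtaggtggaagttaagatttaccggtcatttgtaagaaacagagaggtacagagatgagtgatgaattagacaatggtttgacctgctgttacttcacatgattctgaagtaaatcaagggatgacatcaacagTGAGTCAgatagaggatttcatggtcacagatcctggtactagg
Mmp3: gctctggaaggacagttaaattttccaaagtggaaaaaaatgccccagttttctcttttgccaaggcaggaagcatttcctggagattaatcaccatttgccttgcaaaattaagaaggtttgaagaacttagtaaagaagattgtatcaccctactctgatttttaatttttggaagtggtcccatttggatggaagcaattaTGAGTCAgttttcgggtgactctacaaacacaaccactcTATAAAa

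The Adamts1 window holds 3 GC boxes and a TATA box that begins 32 bases before the start. The Timp3 window holds 1 GC box and neither other motif. In Mmp7, Mmp12 and Mmp3 an AP-1 site begins 63, 44 and 46 bases before the start shown. The other listed start of Mmp7 and that of Mmp12 hold none of the 3 motifs, and a gene is counted here when any of its starts holds one. Promoters were listed for 29 of the 42 members. An AP-1 site was found in 8 of them, of which 6 were under the filter (Mmp1a, Mmp1b, Mmp3, Mmp10, Mmp13 and Mmp20) and 2 were tested (Mmp7 and Mmp12), and 7 of the 8 also held a TATA box. Of the 17 tested members with a promoter 12 held a GC box, and of the 12 under the filter 3 did. Among all 32851 listed promoters of that length, 6.75% held an AP-1 site, 32.7% a GC box and 12.4% a TATA box. These percentages count each start singly, while the member counts are per gene, so the units differ. A match describes the letters only.

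Relative to the median gene, 12 of the 28 tested members rose in G609G against WT, 11 fell and 5 did not pass the test. Over all 11342 genes 34.0% rose and 36.7% fell, 70.7% in all, beside the 23 of 28 members. The arrays of G609G and WT did not overlap for 21 members and for 71.6% of all genes. As deposited, 3 members were called higher and 19 lower, against 8.26% and 71.3% of all genes. Only Adamts1, Mmp7 and Timp3 were called higher, and Mmp9, Mmp11, Mmp12, Mmp15, Mmp28 and Adamts5 lower, under each of 5 scalings tried (relative to the median gene, as deposited, quantile, each array's own median, and level-dependent). The share of all genes called under all 5 was not counted. In LCS against WT 15 members rose, 2 fell and 11 did not pass the test, with the same counts as deposited. Over all genes 22.3% rose and 17.7% fell, 40.0% in all, and LCS and WT did not overlap for 18 members and 57.8% of all genes. Rises of 1.5-fold or more were called for 5 members and falls for 0, against 3.21% and 5.07% of all genes. The median log2 fold was 0.28 over the members and 0.02 over all genes tested. Both comparisons share the WT arrays, so their values are given side by side and the mutants are compared directly further on. All calls are at an adjusted p of 0.05, by limma with Benjamini-Hochberg adjustment over all genes tested.

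**Figure D1:**
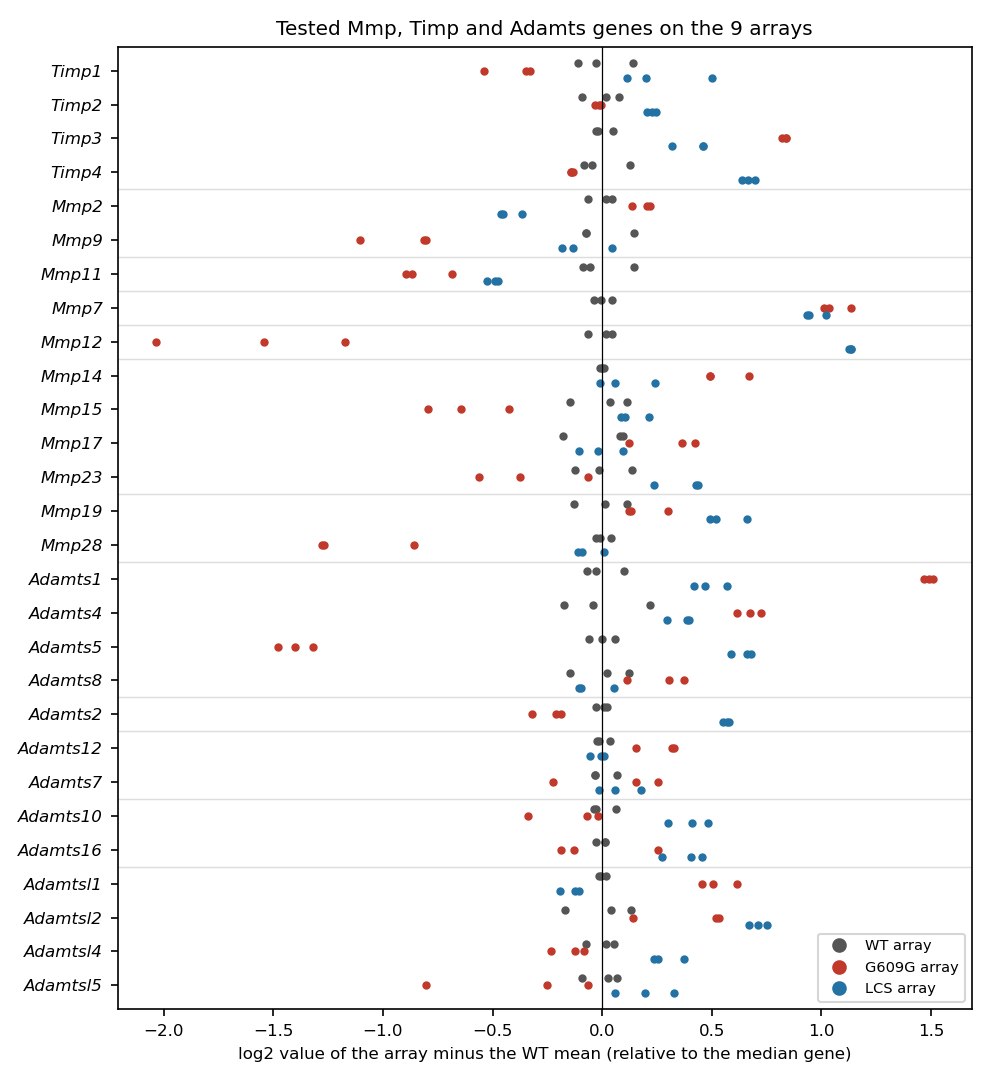
Each point is the log2 value of 1 array minus the WT mean of that gene, relative to the median gene, for the 28 tested members grouped by role (grey lines), with WT in grey, G609G in red and LCS in blue. The G609G points of Adamts1, Timp3 and Mmp7 lie right of all WT points and those of Adamts5 and Mmp12 left of them, while LCS points of Adamts5, Mmp12 and Timp4 lie to the right.

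The 4 tissue inhibitors moved apart. Timp3, the matrix-bound inhibitor, was at 11.0, 10.92 and 10.93 on the WT arrays, 11.79, 11.77 and 11.79 on G609G and 11.41, 11.27 and 11.41 on LCS. The 3 groups did not overlap, with G609G highest and WT lowest. That order holds relative to the median gene; as deposited G609G was at 11.30, 11.29 and 11.38 and LCS at 11.46, 11.28 and 11.45, overlapping, with WT still lowest. The log2 fold from WT was 0.83 (SE 0.04, adjusted p = 2.38e-09) in G609G and 0.42 (SE 0.04, adjusted p = 5.10e-06) in LCS, and all 12 of its probe sets above the filter were higher than WT in both. As deposited the fold was 0.37 in G609G and 0.45 in LCS.

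Timp4, an inhibitor that fat tissue is known to express, was at 11.22, 11.05 and 11.01 in WT, 10.95, 10.95 and 10.96 in G609G and 11.76, 11.73 and 11.79 in LCS. The LCS arrays stood above all others, and the G609G arrays lay just under the lowest WT array. Timp4 rose in LCS by a log2 fold of 0.67 (SE 0.05, adjusted p = 3.53e-07). In G609G the fold was -0.14 (SE 0.05, adjusted p = 0.0164), a call that was lost with a plain mean of probe sets (-0.03, adjusted p = 0.532) or no variance trend (adjusted p = 0.0526) and turned to 0.01 with each array centred on its own median. Without WT replicate 1 it was -0.08 (adjusted p = 0.0448). It was larger as deposited (-0.60, adjusted p = 1.30e-08), with quantile scaling (-0.25, adjusted p = 7.92e-05) and with level-dependent scaling (-0.23, adjusted p = 0.000200).

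Timp2, which also takes part in the activation of Mmp2, was at 11.58, 11.52 and 11.41 in WT, 11.47, 11.50 and 11.49 in G609G and 11.73, 11.75 and 11.71 in LCS. The LCS arrays were above WT without overlap, with a log2 fold of 0.23 (SE 0.04, adjusted p = 0.000412). The G609G arrays lay within the WT range, at a log2 fold of -0.02 (SE 0.04, adjusted p = 0.693) that was -0.48 as deposited, -0.13 with quantile scaling (adjusted p = 0.000437) and 0.14 with own-median centring (adjusted p = 0.0286). Timp1, the inhibitor induced in inflamed tissue, was at 6.69, 6.52 and 6.44 in WT, 6.01, 6.22 and 6.20 in G609G and 7.05, 6.66 and 6.75 in LCS. It fell in G609G by 0.41 on the log2 scale (SE 0.11, adjusted p = 0.00743), or with an adjusted p = 0.0630 when each array was centred on its own median. In LCS the Timp1 log2 fold was 0.27 (SE 0.11, adjusted p = 0.0783), with 1 of the LCS arrays inside the WT range. It passed without LCS replicate 2 (log2 fold 0.36, adjusted p = 0.0465), with quantile scaling (0.0464) and with array weights (0.0455).

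Among the Mmp genes, Mmp12 and Mmp7 had the largest log2 folds in LCS and Mmp12 and Mmp28 in G609G. Mmp12, the macrophage elastase, was at 7.21, 7.29 and 7.32 in WT, 6.10, 5.73 and 5.24 in G609G and 8.41, 8.41 and 8.40 in LCS. The groups did not overlap, and the G609G arrays spread more widely than the others. The log2 fold was -1.58 in G609G (SE 0.16, adjusted p = 2.71e-06), a 3.0-fold lower signal, and 1.14 in LCS (SE 0.16, adjusted p = 0.000138), a 2.20-fold higher one. As deposited the G609G arrays were at 5.61, 5.25 and 4.82, close to the gene filter of 5.09. The deposited log2 fold was -2.05 in G609G, so the size of the fall depends on the scaling. Macrophage markers moved beside Mmp12: of 20 tested, 12 fell and 2 rose in G609G, and 1 fell and 13 rose in LCS. Their mean level was 7.84 to 7.98 in G609G, 8.50 to 8.55 in WT and 8.82 to 8.86 in LCS. As deposited 18 fell and 0 rose in G609G, and 1 fell and 14 rose in LCS. Cd68 had a log2 fold of -0.91 in G609G and 0.34 in LCS, and Csf1r of -1.07 and 0.23. Both were named after their values were seen and do not stand for the markers that moved the other way. The part of macrophage content in the Mmp12 result was not tested.

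Mmp7, matrilysin, a small protease of epithelia, was at 8.19, 8.11 and 8.14 in WT, 9.18, 9.16 and 9.28 in G609G and 9.17, 9.08 and 9.09 in LCS. Every array of either mutant stood above every WT array. The log2 fold was 1.06 in G609G (SE 0.05, adjusted p = 1.93e-09) and 0.97 in LCS (SE 0.05, adjusted p = 1.92e-08), and all 7 probe sets were higher than WT in both. As deposited the fold was 0.60 in G609G and 1.0 in LCS. Among the 7, probe set 4918216 was deposited under the probe set filter of 5.01 on all WT and LCS arrays. Its mean passed that filter only through the G609G arrays.

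The gelatinases, which cleave denatured collagen and basement membrane, differed from each other. Mmp9, known from neutrophils and macrophages, was at 7.24, 7.24 and 7.46 in WT, 6.21, 6.5 and 6.51 in G609G and 7.13, 7.18 and 7.36 in LCS. It fell in G609G by 0.91 on the log2 scale (SE 0.10, adjusted p = 8.78e-06), with no overlap with WT. In LCS its log2 fold was -0.09 (SE 0.10, adjusted p = 0.554). Mmp2, the gelatinase of fibroblasts and other stromal cells, was at 9.87, 9.76 and 9.84 in WT, 9.96, 10.04 and 10.03 in G609G and 9.37, 9.46 and 9.36 in LCS. In LCS it fell by 0.42 on the log2 scale (SE 0.04, adjusted p = 8.88e-06), below every WT array. In G609G it rose by 0.19 relative to the median gene (SE 0.04, adjusted p = 0.00216), but the deposited value was a fall, with a log2 fold of -0.28 (adjusted p = 0.000475).

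Of the membrane-anchored enzymes, Mmp14, which activates Mmp2 and cleaves collagen at the cell surface, was at 8.87, 8.88 and 8.86 in WT and at 9.36, 9.36 and 9.54 in G609G. Its log2 fold of 0.55 there (SE 0.07, adjusted p = 1.35e-05) was 0.09 as deposited (adjusted p = 0.331). In LCS Mmp14 was at 8.86, 8.93 and 9.11, overlapping WT (log2 fold 0.10, SE 0.07, adjusted p = 0.274). Mmp15 fell in G609G from 6.79, 7.05 and 6.97 to 6.14, 6.51 and 6.29, a log2 fold of -0.62 (SE 0.10, adjusted p = 0.000216), and was at 7.02, 7.15 and 7.04 in LCS (adjusted p = 0.340). Mmp17 had a log2 fold of 0.30 in G609G (adjusted p = 0.0290), which was -0.16 as deposited, 0.13 with level-dependent scaling (adjusted p = 0.207) and 0.15 with quantile scaling (adjusted p = 0.279). The Mmp17 call was also lost without WT replicate 3, G609G replicate 1 or G609G replicate 2 (adjusted p = 0.114, 0.101 and 0.0823). Mmp23 had a log2 fold of -0.33 in G609G (adjusted p = 0.0212) and 0.37 in LCS (adjusted p = 0.0233). The first call was lost without WT replicate 3, G609G replicate 1 or G609G replicate 2 (log2 folds -0.26, -0.22 and -0.31, adjusted p = 0.0908, 0.0898 and 0.0568), and with quantile scaling (0.0597), own-median centring (0.118) or a plain mean of probe sets (0.0898). The second was lost without WT replicate 1 or 2 or LCS replicate 1 or 3 (adjusted p = 0.0634, 0.0935, 0.0799 and 0.0833).

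Mmp11, a stromelysin of stromal cells, was lower than WT in both mutants, at 7.52, 7.49 and 7.72 in WT, 6.89, 6.71 and 6.68 in G609G and 7.05, 7.10 and 7.09 in LCS. The log2 fold was -0.82 in G609G (SE 0.09, adjusted p = 3.48e-06) and -0.49 in LCS (SE 0.09, adjusted p = 0.000608). Mmp28, epilysin, was at 8.40, 8.35 and 8.33 in WT and at 7.08, 7.5 and 7.09 in G609G, a fall by 1.14 on the log2 scale (SE 0.10, adjusted p = 5.98e-07), and all 13 of its probe sets were lower there. In LCS it was at 8.37, 8.27 and 8.25 (adjusted p = 0.669). Mmp19, which cleaves basement membrane proteins, rose in LCS from 7.87, 7.73 and 7.97 to 8.52, 8.35 and 8.38, a log2 fold of 0.56 (SE 0.08, adjusted p = 0.000109). In G609G it was at 7.98, 7.99 and 8.16, with a log2 fold of 0.18 (adjusted p = 0.0495) that was -0.28 as deposited. That call was lost when any array other than WT replicate 3 and G609G replicate 1 was left out, with an adjusted p of up to 0.201, without WT replicate 2 (log2 fold 0.12).

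The proteoglycan-cleaving Adamts enzymes changed in opposite directions in G609G. Adamts1, which cleaves versican and aggrecan, was at 8.13, 8.09 and 8.26 in WT, 9.63, 9.67 and 9.65 in G609G and 8.63, 8.58 and 8.73 in LCS. The 3 groups did not overlap, with G609G highest. Adamts1 had a log2 fold of 1.49 in G609G (SE 0.06, adjusted p = 2.96e-10), a 2.81-fold higher signal, and 0.49 in LCS (SE 0.06, adjusted p = 2.52e-05). As deposited the G609G fold was 1.03, and all 16 probe sets above the filter were higher than WT in both mutants.

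Adamts5, the other main aggrecan-cleaving enzyme, was at 10.28, 10.22 and 10.34 in WT, 8.80, 8.88 and 8.96 in G609G and 10.87, 10.94 and 10.96 in LCS. It was lowest in G609G and highest in LCS, without overlap. Adamts5 had a log2 fold of -1.40 in G609G (SE 0.05, adjusted p = 1.14e-10), a 2.64-fold lower signal, and 0.65 in LCS (SE 0.05, adjusted p = 5.98e-07). All 9 of its probe sets were lower than WT in G609G, by 1.05 to 1.79 on the log2 scale (differences of -1.05 to -1.79), and higher in LCS, by 0.55 to 0.78.

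Adamts4, also an aggrecan-cleaving enzyme, was at 6.31, 5.92 and 6.05 in WT, 6.77, 6.82 and 6.71 in G609G and 6.39, 6.48 and 6.49 in LCS, with WT lowest. The log2 fold was 0.67 in G609G (SE 0.10, adjusted p = 7.87e-05) and 0.21 there as deposited (adjusted p = 0.0705). In LCS it was 0.36 (SE 0.10, adjusted p = 0.0129), a call lost without WT replicate 2 (0.27, adjusted p = 0.0633). Adamts8 overlapped between WT and G609G. Its log2 fold of 0.26 (adjusted p = 0.0421) was -0.20 as deposited, 0.02 with level-dependent scaling (adjusted p = 0.839) and 0.23 with quantile scaling (adjusted p = 0.0527). The call was lost without WT replicate 1 or 3, G609G replicate 1 or 2 or LCS replicate 1 or 3 (adjusted p = 0.0742, 0.147, 0.135, 0.104, 0.0555 and 0.0562).

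Adamts2, which removes the N-terminal propeptide of fibrillar procollagens, was at 9.79, 9.75 and 9.80 in WT, 9.59, 9.46 and 9.57 in G609G and 10.35, 10.33 and 10.36 in LCS. LCS was highest and G609G lowest, without overlap. The log2 fold was -0.24 in G609G (SE 0.04, adjusted p = 0.000151), or -0.09 (adjusted p = 0.0579) with each array centred on its own median, and 0.57 in LCS (SE 0.04, adjusted p = 2.99e-07). Fibroblast and adipocyte progenitor markers moved beside Adamts2 and Adamts5: of 22 tested, 15 fell and 3 rose in G609G, and 1 fell and 14 rose in LCS. As deposited 19 fell and 0 rose in G609G, and 1 fell and 14 rose in LCS. The mean marker level was 8.65 to 8.76 in G609G, 9.30 to 9.32 in WT and 9.61 to 9.62 in LCS. Other members named above as stromal did not all move this way. Relative to the median gene, Mmp2 had log2 folds of 0.19 in G609G (-0.28 as deposited) and -0.42 in LCS. Mmp11 had log2 folds of -0.82 in G609G and -0.49 in LCS. The part of fibroblast and progenitor content in the member values was not tested.

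Adamts12, which cleaves cartilage oligomeric matrix protein, rose in G609G from 8.90, 8.89 and 8.95 to 9.24, 9.07 and 9.23, a log2 fold of 0.27 (SE 0.05, adjusted p = 0.000526) that was -0.20 as deposited (adjusted p = 0.0191). In LCS its log2 fold was -0.02 (adjusted p = 0.834). Adamts7, its nearest relative, had log2 folds of 0.06 in G609G (adjusted p = 0.655; -0.40 as deposited, adjusted p = 0.00390) and 0.08 in LCS (adjusted p = 0.666). Adamts10, a microfibril-associated member, rose in LCS from 7.0, 7.01 and 7.10 to 7.34, 7.45 and 7.52, a log2 fold of 0.40 (SE 0.09, adjusted p = 0.00453), and did not pass in G609G (-0.14, adjusted p = 0.183), where it was called lower as deposited (-0.61, adjusted p = 4.18e-05). Adamts16 had a log2 fold of 0.38 in LCS (SE 0.11, adjusted p = 0.0202). That call was lost without any 1 of the WT arrays (adjusted p = 0.0505, 0.0504 and 0.0534 for replicates 1 to 3), without LCS replicate 1 (0.0768) or without LCS replicate 3 (0.0651). In G609G the Adamts16 log2 fold was -0.02 (adjusted p = 0.881), and -0.48 as deposited (adjusted p = 0.00128).

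The Adamts-like proteins also differed by genotype. Adamtsl2, which binds fibrillin microfibrils, was at 6.34, 6.25 and 6.04 in WT, 6.74, 6.73 and 6.35 in G609G and 6.88, 6.92 and 6.96 in LCS. The LCS log2 fold was 0.71 (SE 0.11, adjusted p = 0.000378). The G609G fold was 0.40 (SE 0.11, adjusted p = 0.00828), but -0.06 as deposited (adjusted p = 0.574). Adamtsl1 rose in G609G from 6.54, 6.53 and 6.56 to 7.0, 7.05 and 7.16, a log2 fold of 0.53 (SE 0.07, adjusted p = 5.12e-05) that was 0.06 as deposited (adjusted p = 0.526). Adamtsl4, a protein of the lens zonule and other microfibrils, rose in LCS by 0.29 (SE 0.07, adjusted p = 0.00758) and had a log2 fold of -0.15 in G609G (adjusted p = 0.0918) that was -0.61 as deposited (adjusted p = 4.46e-06). Adamtsl5 had log2 folds of -0.37 in G609G (SE 0.15, adjusted p = 0.0458) and 0.19 in LCS (adjusted p = 0.360). The G609G call was lost when any array other than G609G replicate 1 or 2 was left out, with an adjusted p of up to 0.145, without G609G replicate 3 (log2 fold -0.16), and in most other settings, with quantile scaling at -0.19 (adjusted p = 0.291).

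**Figure D2:**
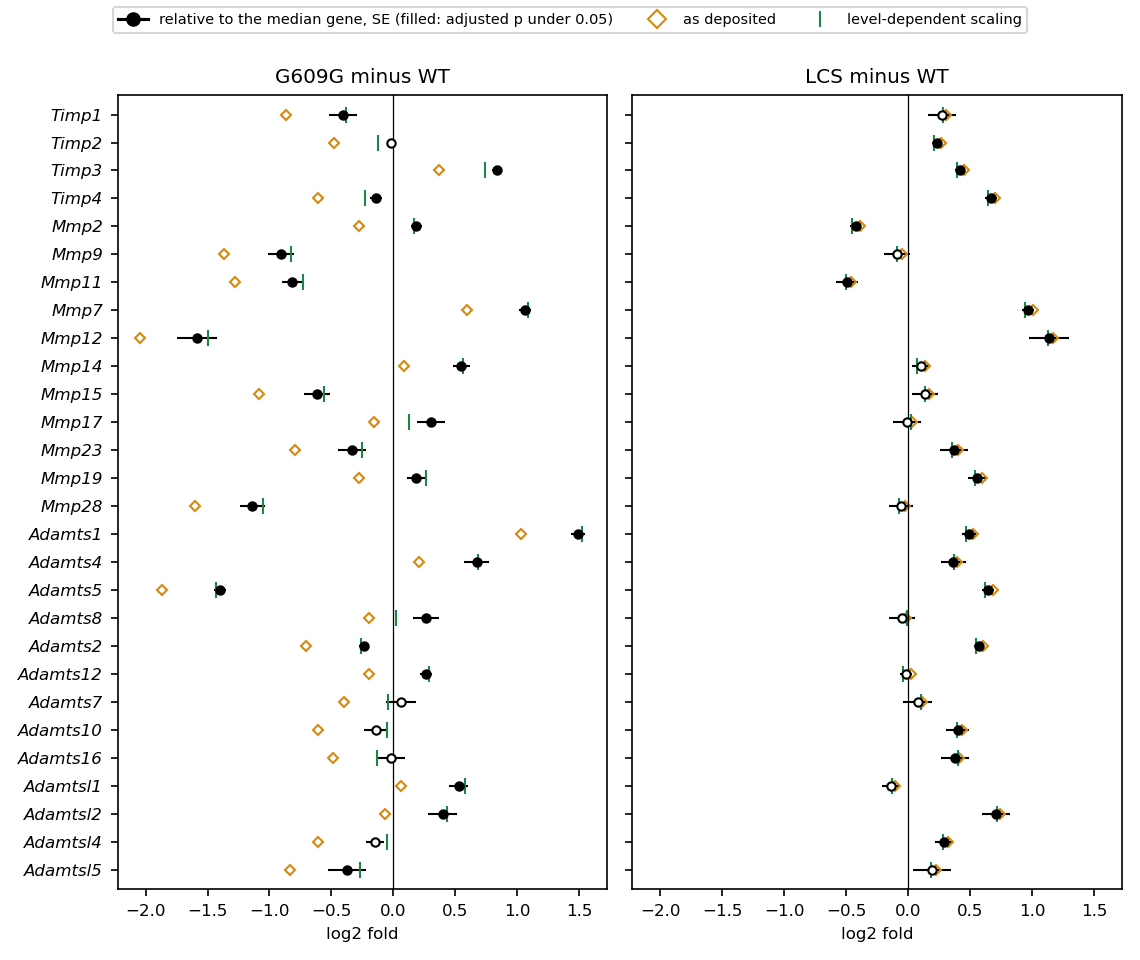
Log2 folds of the 28 tested members in G609G minus WT (left) and LCS minus WT (right): black circles with SE are relative to the median gene, filled where the adjusted p is under 0.05, orange diamonds are as deposited and green ticks follow the level-dependent scaling. In G609G the diamonds lie 0.46 to the left of the circles, and 7 members change sign between the scales, while in LCS the scales nearly coincide.

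The deposited offset of G609G from WT changed with the level of the genes. The members that changed sign between the median-gene scale and the deposited one did not share a level. Their mean in WT ran from 5.27 (Adamts8) to 9.82 (Mmp2). Over all genes measured, the median deposited difference between G609G and WT was 0.18 for genes under 4 in WT, -0.02 from 4 to 5, -0.26 from 5 to 6 and -0.48 from 6 to 7, and it lay between -0.49 and -0.58 in each bin above 7. In LCS it lay between 0.00 and 0.07 at every level. A level-dependent scaling, chosen after this was seen, called 10 members higher and 11 lower in G609G and 15 higher and 2 lower in LCS. Over all genes it called 34.2% higher and 36.3% lower in G609G, and 22% and 20.3% in LCS. With it the calls of Adamts8, Mmp17 and Adamtsl5 in G609G were lost, and Timp2 was called lower (log2 fold -0.12, adjusted p = 0.00169).

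**Figure D3:**
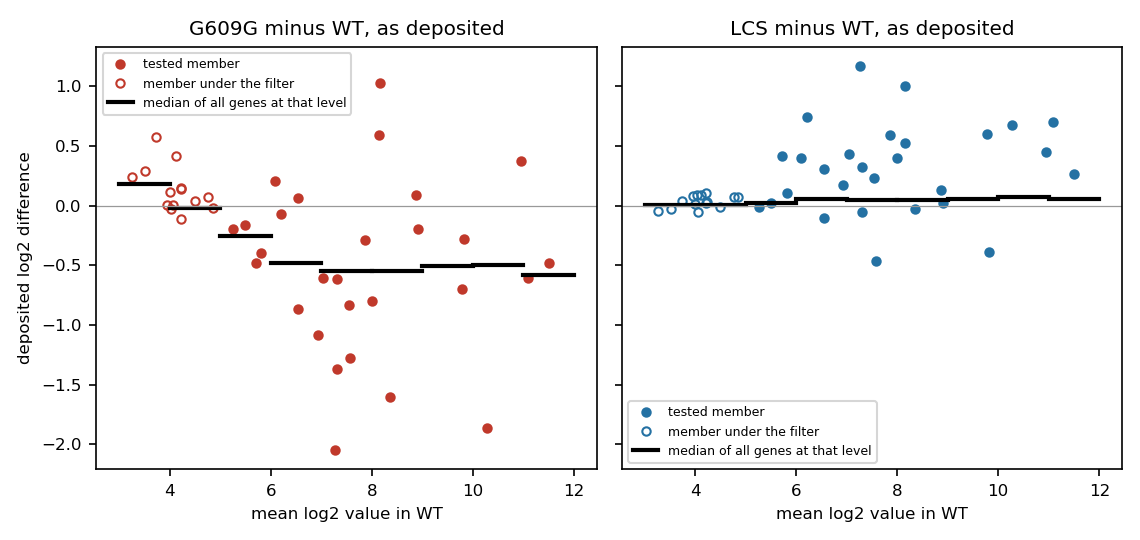
Deposited log2 difference from WT against the mean log2 value in WT for G609G (left) and LCS (right), with tested members as filled and members under the filter as open circles, and the median of all genes at each level as black bars. In G609G the bars fall from 0.18 to about -0.5 as the level rises. Among the tested members Adamts1, Mmp7 and Timp3 stand highest, while Mmp12 and Adamts5 lie lowest. Some other members also stand above 0, among them Mmp8 under the filter at 0.57.

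The 14 members under the filter had deposited means of 3.33 to 4.87. They include the collagenases Mmp1a, Mmp1b, Mmp8 and Mmp13 and the stromelysins Mmp3 and Mmp10, enzymes known for their induction by inflammatory signals, as well as Mmp16, Mmp20, Mmp21, Mmp24, Adamts13, Adamts18, Adamts19 and Adamts20. Mmp3 was deposited at 4.17, 4.23 and 4.27 in WT, 4.44, 4.27 and 4.40 in G609G and 4.22, 4.25 and 4.26 in LCS, so G609G lay at or just above the top of the WT range. The deposited difference from WT over the 14 genes ran from -0.11 to 0.57 in G609G (median 0.09) and from -0.05 to 0.11 in LCS (median 0.04). The highest was that of Mmp8, neutrophil collagenase, at 3.77, 3.74 and 3.69 in WT and 4.25, 4.18 and 4.49 in G609G. These genes were not tested in the main analysis.

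The mutants were also compared with each other, a contrast that does not use the WT arrays in its difference. Relative to the median gene, 9 of the 28 members were higher in G609G than in LCS and 17 lower, against 36.9% and 36.9% of all genes (73.8% in all). The mutants did not overlap for 26 members and for 75.3% of all genes, and the median log2 fold was -0.35 over the members and 0.02 over all genes. As deposited, 1 member was higher (Adamts1) and 20 lower, against 9.38% and 70.5% of all genes. Under all 5 scalings 1 was called higher and 13 lower, and the share of all genes was not counted. The lowest in G609G were Mmp12 (log2 fold -2.72, SE 0.16, adjusted p = 1.56e-08), Adamts5 (-2.05, SE 0.05, adjusted p = 3.05e-12), Mmp28 (-1.08), Mmp9 (-0.82), Adamts2 (-0.81), Timp4 (-0.81), Mmp15 (-0.76), Mmp23 (-0.70), Timp1 (-0.68) and Adamtsl5 (-0.56). Adamts1 was 1.0 higher (SE 0.06, adjusted p = 9.65e-09; 0.50 as deposited). Adamtsl1 was 0.66 higher and Mmp2 0.61 higher, values that were 0.17 and 0.11 as deposited, where neither passed the test (adjusted p = 0.102 and 0.0826). Mmp14 (0.45), Timp3 (0.42), Adamts4 (0.31), Mmp17 (0.31), Adamts8 (0.31) and Adamts12 (0.28) were called higher relative to the median gene but had deposited log2 folds of -0.05, -0.08, -0.19, -0.19, -0.18 and -0.22. Mmp7 did not pass, at 0.09 (adjusted p = 0.112), and was -0.41 as deposited and 0.23 with own-median centring (adjusted p = 0.000220).

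Adamtsl5 moved to -0.35 between the mutants without G609G replicate 3 and was still called (adjusted p = 0.00516). Some other direct calls were lost when 1 array was left out. Adamts4 was lost without LCS replicate 1 (adjusted p = 0.0553). Adamtsl2, at -0.31 between the mutants (adjusted p = 0.0275), was lost without G609G replicate 3 (-0.19, adjusted p = 0.0937), LCS replicate 2 (adjusted p = 0.0617) or LCS replicate 3 (adjusted p = 0.0790), and with quantile scaling (-0.22, adjusted p = 0.0988). Adamts8 and Mmp17 were lost without either of G609G replicates 1 and 2 or of LCS replicates 1 and 3, with adjusted p from 0.0535 to 0.0681 for Adamts8 and from 0.0602 to 0.0904 for Mmp17.

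Each probe set covers a short stretch of a transcript and was set against the rest of its own gene, a test that a constant offset between arrays does not affect. The G609G offset changes with level, as given above, so dim and bright probe sets of 1 gene are shifted differently in the G609G comparisons, and the part of level in those calls was not tested. Of 483 member probe sets in 36 genes tested with limma's diffSplice, 69 in 22 genes were called in G609G minus WT, against 15.7% of all 156218 probe sets. In LCS minus WT 8 in 6 genes were called, against 1.82%, and in G609G minus LCS 94 in 26 genes, against 18.2%. The count of 8 fell to 3, 3 and 5 without WT replicate 1, 2 or 3, to 2 without LCS replicate 1 and to 3 without LCS replicate 3.

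**Figure D4:**
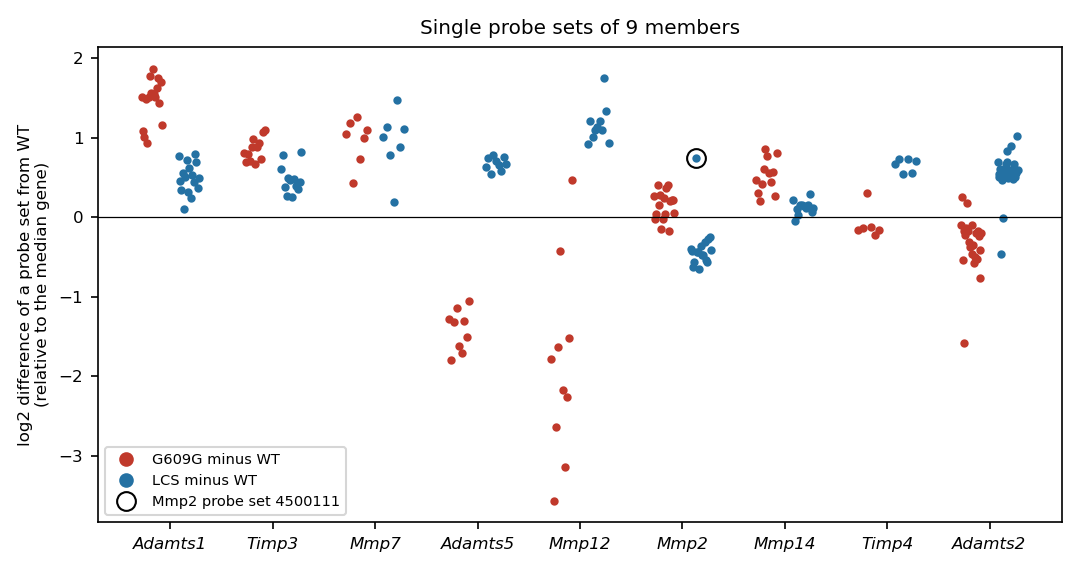
Each point is 1 probe set above the intensity filter, as its log2 difference from WT relative to the median gene, for 9 members in G609G (red) and LCS (blue). All Adamts5 points lie below 0 in G609G and above 0 in LCS, and the ringed Mmp2 probe set lies above 0 in LCS where the other 16 of that gene lie below.

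The clearest single probe set was 4500111 of Mmp2. Its deposited values were 8.04, 8.32 and 8.24 in WT, 8.18, 7.63 and 7.87 in G609G and 8.88, 9.09 and 8.96 in LCS. It was higher in LCS than in WT, while the other 16 Mmp2 probe sets above the filter were lower there. Against the rest of the gene it differed by 1.19 in LCS minus WT (adjusted p = 7.27e-09) and by -1.18 in G609G minus LCS (adjusted p = 1.24e-09). Probe set 5315426 of Mmp12 stayed near its WT level in G609G, at 7.5, 7.23 and 6.45 against 7.02, 7.64 and 6.5 in WT, while the rest of the gene fell. Its difference from the rest was 2.60 (adjusted p = 3.21e-11), and 2.86 in G609G minus LCS (adjusted p = 7.55e-13).

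Adamts2 probe set 4456885 was lower than the rest of its gene in both mutants. Its deposited values were 6.46, 5.98 and 5.90 in WT, 4.14, 4.37 and 3.70 in G609G and 6.44, 5.68 and 4.92 in LCS. The difference from the rest of Adamts2 was -1.30 in G609G (adjusted p = 2.70e-12) and -1.06 in LCS (adjusted p = 4.06e-08), with the G609G values under the filter of 5.01. In Adamts12, probe set 4461889 rose more than the gene in G609G (9.72, 9.73 and 9.88 against 8.94, 8.98 and 9.06; difference 0.98, adjusted p = 1.89e-07), and 4937024 was higher in G609G minus LCS (difference 1.08, adjusted p = 6.18e-09).

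Called probe sets of the Adamts-like genes lay on both sides of their genes in G609G. Adamtsl4 probe set 5540663 was at 7.74, 8.22 and 7.42 in WT and 8.55, 8.45 and 8.52 in G609G (difference from the rest 1.36, adjusted p = 6.80e-05), and Adamtsl2 probe set 4683973 at 5.69, 6.18 and 6.25 against 6.89, 7.69 and 7.12 (difference 1.40, adjusted p = 4.05e-05), both named after their values were seen. Adamtsl4 probe set 4385962 was at 7.04, 7.30 and 7.19 in WT and 5.63, 3.89 and 4.95 in G609G, with 2 of the 3 under 5.01, a difference from the rest of -1.82 (adjusted p = 5.23e-08), and of -2.22 from LCS (adjusted p = 2.27e-11). Adamtsl2 probe set 4687713 was at 6.05, 6.28 and 6.19 in WT, 4.12, 4.43 and 4.77 in G609G, all under 5.01, and 8.0, 7.82 and 7.84 in LCS. Its difference from the rest of Adamtsl2 was -1.68 in G609G minus WT (adjusted p = 6.27e-07) and -2.63 in G609G minus LCS (adjusted p = 3.19e-14). In LCS minus WT, Adamtsl4 probe set 4355242 (difference 0.98, adjusted p = 0.0333), Adamts10 probe set 4744306 (-1.17, adjusted p = 0.0334) and Mmp7 probe set 4918216 (-0.87, adjusted p = 0.0417) passed near the threshold. The Mmp7 one was at 4.72, 4.53 and 4.97 in WT and 4.94, 4.97 and 4.99 in LCS, all under 5.01. It passed the filter only through its G609G values. Positions of the probe sets within the genes were not used here.

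Other genes of matrix proteolysis were counted from lists that hold no member. Over all genes tested 34.0% rose and 36.7% fell in G609G, and 22.3% rose and 17.7% fell in LCS. As deposited the shares were 8.26% and 71.3% in G609G, and 22.5% and 13.0% in LCS. These shares stand beside each list count. Of 31 tested substrates of Mmp and Adamts enzymes, 8 rose and 20 fell in G609G and 23 rose and 3 fell in LCS, and the counts as deposited were 2 and 25, and 23 and 3. The median log2 fold was -0.40 in G609G and 0.41 in LCS, against -0.01 and 0.02 over all genes. Thbs1, the matricellular thrombospondin that Adamts1 cleaves, fell in G609G (a log2 fold of -1.99, adjusted p = 4.20e-13). Fbn1, fibrillin of the microfibrils, had log2 folds of -1.55 in G609G and 0.94 in LCS, and Fn1, fibronectin, of -1.07 in G609G. In LCS the basement membrane collagen Col4a2 rose by 1.17 and Cilp, a matrix protein of cartilage and heart, by 1.17.

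Of 26 other matrix proteases (Adam, cathepsin, Htra and related genes), 5 rose and 15 fell in G609G (1 and 23 as deposited) and 15 rose and 2 fell in LCS. Adam28, a membrane-anchored metalloprotease, averaged 11.11 on the WT arrays, 5.74 on G609G and 11.66 on LCS, beside the fall of the epididymis markers in G609G, of which 14 of 18 fell and 2 rose. In LCS 10 of those 18 markers fell and 5 rose, and the part of that tissue in the Adam28 value was not tested. The serine protease Htra3 had a log2 fold of -1.27 and the lysosomal cathepsin Ctsb of -0.91 in G609G. In LCS Bmp1, which removes procollagen C-propeptides, rose by 0.82, Ctsl, cathepsin L, by 0.56 and Adam9, a cell surface sheddase, by 0.55. Among 21 other protease inhibitors and related modulators 4 rose and 13 fell in G609G (3 and 17 as deposited) and 11 rose and 4 fell in LCS. Spint2, a Kunitz inhibitor of membrane serine proteases, had log2 folds of -0.87 in G609G and -0.81 in LCS. The list also holds genes that are no inhibitors, such as Pcolce and Pcolce2, enhancers of Bmp1, and the collagen chaperone Serpinh1. Pcolce2 had folds of -0.89 and 0.62. Serpinb9, the granzyme B inhibitor, fell in G609G by 1.62, and Serpina3n rose in LCS by 0.49.

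In the plasminogen system, which can activate Mmp precursors, 5 of 11 tested genes rose and 5 fell in G609G (1 and 7 as deposited), and 5 rose and 1 fell in LCS. Anxa2 and S100a10, which together bind plasminogen at the cell surface, had log2 folds of -1.37 and -0.65 in G609G, and S100a10 of 0.32 in LCS. The membrane serine protease St14 had a log2 fold of -1.49 in G609G. In LCS the protease nexin Serpine2 rose by 1.32 and the plasmin inhibitor Serpinf2 by 1.27. Of 5 proprotein convertases, which cleave the propeptides of Adamts and membrane-anchored Mmp enzymes, 2 rose and 1 fell in G609G. These were Furin (log2 fold 0.43) and Pcsk5 (0.33), which were -0.04 and -0.13 as deposited (adjusted p = 0.490 and 0.105), and Mbtps1 (-0.14), which was 0.01 with each array centred on its own median. In LCS Pcsk5 rose by 0.30 and Pcsk4 had a log2 fold of -0.38 (adjusted p = 0.0363), a call lost without WT replicate 1 or 2 or any of the LCS arrays, and with quantile scaling or own-median centring.

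Of 10 receptors that clear or hold these enzymes, 2 rose and 6 fell in G609G (2 and 8 as deposited), and 4 rose and 0 fell in LCS. Lrp1, the endocytic receptor that clears Adamts5, Mmp2 and Timp3 complexes, rose in G609G by 0.99 (0.53 as deposited). The syndecan Sdc4, which holds Adamts enzymes at the cell surface, had log2 folds of 1.70 in G609G and 0.63 in LCS. Cav1, caveolin of the adipocyte surface, had folds of -0.89 and 0.16, and Mrc2, the collagen uptake receptor, rose in LCS by 1.06. Among 21 regulators of protease genes 10 rose and 8 fell in G609G (7 and 11 as deposited) and 15 rose and 1 fell in LCS. Ptgs2, the inducible cyclooxygenase, had a log2 fold of 2.43 in G609G and -1.78 in LCS. The NF-kappaB inhibitor Nfkbia rose in G609G by 1.70 and the Ets factor Etv5 fell by 2.32 on the log2 scale. Jun, a subunit of AP-1, rose in LCS by 0.59 and Smad7, an inhibitor of Tgf-beta signalling, by 0.50. The log2 folds given for genes of these lists passed limma's test relative to the median gene, save those stated for another scaling.

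Markers of other cell types are given for the same arrays. Of 15 endothelial markers 12 rose and 1 fell in G609G, or 6 and 7 as deposited, and 12 rose and 2 fell in LCS, with a mean level of 9.50 to 9.55 in G609G, 9.09 to 9.13 in WT and 9.33 to 9.34 in LCS. Of 15 smooth muscle and pericyte markers 10 rose and 2 fell in G609G, or 6 and 6 as deposited, and 5 rose and 5 fell in LCS. All 15 skeletal muscle markers rose in G609G on either scale, among them the fast troponin Tnnt3 with averages of 5.54 (WT) and 13.73 (G609G), and 3 rose in LCS. Adamts1, Timp3 and Mmp14 rose on the same G609G arrays, and the part of muscle, vessel or epididymal RNA in the member values was not tested. Of 6 neutrophil and mast cell markers 3 rose and 1 fell in G609G, or 1 and 3 as deposited, and 2 rose and 1 fell in LCS. Of 11 mesothelial markers 2 rose and 7 fell in G609G, or 0 and 10 as deposited, and 7 rose and 3 fell in LCS. Of 19 adipocyte markers 6 rose and 11 fell in G609G, or 1 and 17 as deposited, and 8 rose and 1 fell in LCS. Lep, leptin, averaged 10.63 on the WT arrays, 5.22 on G609G and 11.74 on LCS, and Adipoq, adiponectin, at 13.35, 13.01 and 13.35. The median log2 fold over the 19 adipocyte markers was -0.13 in G609G and 0.09 in LCS, so Lep does not stand for the list.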

How the data were processed

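Total RNA of perigonadal white adipose tissue was biotin-labelled for whole-transcript arrays, per the labels' protocols. For each of 9 arrays the authors deposited log2 intensities of 229581 probe sets. Their normalization is not given in sources used here, and the build is mm9 per the submitters' processing notes. The design text speaks of 10 samples, and 9 were analysed here. Genes were formed from probe sets with exactly 1 symbol (208397; 3965 have several and 17219 none) by median polish (at most 10 rounds). Gene values were set relative to the median gene and fitted over all 9 arrays in limma (lmFit, then eBayes with a variance trend), with Benjamini-Hochberg adjustment at 0.05; the minimum was 3 probe sets per gene and a mean over the 25th percentile. For diffSplice, probe sets had to exceed their own 25th percentile (5.01). All adjusted p-values printed come from limma's tests, while the counts given for the methods' t-test rest on that t-test.

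The members and all gene lists were chosen with earlier results of these data known. Named were a fixed set of well-known members, up to 10 largest called rises and falls without overlap per comparison, members whose direction turns with the scaling, up to 3 genes of lowest p per list, and the 5 leading member probe sets per comparison. Mmp8, the Adamtsl probe sets above their gene, Cd68, Csf1r, Tnnt3, Lep and Adipoq were named after their values were seen, as were the members called without being in that set. No 2 arrays shared more than 1.89% of values, so none was a duplicate. Same-numbered WT and G609G arrays deviated together (r = 0.168, 0.145 and 0.337), so their numbers may pair them. The labels do not say what a number shares. For LCS and WT the values were -0.11, 0.20 and 0.09, and for G609G and LCS -0.12, 0.12 and 0.11. These differ in sign, so they do not show a pairing, and so few arrays cannot exclude one. Only 2 of the 9 arrays correlated best with their own number in both other groups. The main fit has no pairing term, so its p-values ignore any pairing, and a replicate block was run as an alternative. Alternatives covered scaling, summary, filters, the variance model, the arrays fitted, a replicate block, leaving out each array, and the methods' t-test; level-dependent scaling (cyclic loess) was added after seeing the data. The code was also run on made-up values, as a check of the code only. That run does not show how well the scaling suits the G609G arrays, whose offset changes with level. Promoters were matched by symbol to RefSeq entries of assembly GRCm38.p6. R 4.3.3, limma 3.58.1, the package data.table (version 1.17.8), Python 3.11.15, pandas 2.3.3 and matplotlib 3.10.9 were used.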

Additional observations from a re-analysis of the deposited data

How the results depend on the processing

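With the values as deposited, G609G minus WT had 3 members higher and 19 lower, and G609G minus LCS had 1 higher. The log2 folds that turned sign in G609G minus WT were those of Adamts7 (-0.40), Mmp19 (-0.28), Mmp2 (-0.28), Adamts8 (-0.20), Adamts12 (-0.20), Mmp17 (-0.16) and Adamtsl2 (-0.065), and in G609G minus LCS those of Mmp7 (-0.41), Adamts12 (-0.22), Adamts4 (-0.19), Mmp17 (-0.19), Adamts8 (-0.18), Timp3 (-0.078) and Mmp14 (-0.047). With each array centred on its own median 13 members were higher and 6 lower in G609G minus WT, against 45.9% and 27.2% of all genes. Timp2 (0.14) and Timp4 (0.012) turned sign in that setting, which leaves a median of 0.15 over all genes. With no intensity filter, where dim genes enter the test, 26 of 42 members were called higher against WT in G609G, and 23 against LCS. The 14 members under the filter had a median deposited difference of 0.09 between G609G and WT. The scaling moved all G609G values up by 0.46, so calls of dim members as higher may reflect that shift. The share of all genes without the filter was not counted. At the 50th percentile 7 and 5 of 18 members were called higher. The methods' t-test at a fold of 1.5 gave 4 higher and 6 lower in G609G minus WT. It gave 5 and 0 in LCS minus WT, and 3 and 9 in G609G minus LCS. After Benjamini-Hochberg, without the fold, the counts were 8 and 8, 13 and 3, and 8 and 14. Shares of all genes by the t-test were not counted. Probe sets called in LCS minus WT were 3 at the 50th percentile (of 268) and 1 by a splicing index. Leaving out 1 array gave 9 to 11 higher and 9 to 10 lower in G609G minus WT, 12 to 16 and 2 in LCS minus WT, 6 to 9 and 16 to 17 in G609G minus LCS, and 52 to 82, 2 to 10 and 63 to 106 called probe sets. The replicate block kept 12 higher and 11 lower in G609G minus WT. On the 6 arrays alone the block added Timp1 (0.27, adjusted p = 0.0167) and Adamtsl5 (0.19, adjusted p = 0.0170) in LCS minus WT (17 higher). The block changed no other member call. Whether the numbers pair the LCS and WT arrays is not known. For the 50th percentile, the splicing index, the left-out arrays and the replicate block, shares of all genes or probe sets were not counted. Causes beyond those given were not tested. The limits are 3 arrays a group and signals near the lowest of the array.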
